A study of Homo sapiens with 10 samples.

Results

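Semaphorins, plexins and neuropilins are the ligands, receptors and co-receptors of 1 guidance system, and 31 genes of it were followed through a comparison of primate FOXP2 cDNAs. They were taken by gene symbol alone, as semaphorins of classes 3 to 7, plexins A to D, NRP1 and NRP2, which gave 20 semaphorins, 9 plexins and 2 neuropilins of 27992 gene symbols in the table. The cells were SH-SY5Y, a human neuroblastoma line, stably transfected under geneticin selection with the pcDNA3 vector. The vector was empty (pcDNA3) or held the FOXP2 cDNA of human (isoform I, hsaFOXP2), chimpanzee (ptrFOXP2), Rhesus monkey (mmuFOXP2) or white-tufted ear marmoset (cjaFOXP2). All 5 conditions share the line, the vector and the selection, and each was sequenced as 2 biological replicates, A and B, from separate transfections. In the fit of all 5 conditions, p-values thus describe the spread between such transfections of 1 line. For hsaFOXP2 against non-human FOXP2 the 3 non-human cDNAs were taken as 1 group. The p-values of that comparison therefore also hold the differences between these cDNAs. How many transfected clones made up each culture is not stated in the labels or methods.

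Semaphorins are secreted or membrane-bound proteins that steer growing axons and migrating cells, mostly by repulsion. They act through plexins, large receptors whose cytoplasmic part switches off small GTPases of the Ras family and reshapes the cytoskeleton. Class 3 semaphorins are secreted and mostly need a neuropilin beside the plexin, whereas classes 4 to 7 are bound to the membrane and mostly bind plexins directly.

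Expression was measured as BPKM, an RPKM that is computed on mapped bases in place of reads, and each gene is given as the mean BPKM over its transcripts. Values of the replicates are always given in the order A, B. FOXP2 itself was listed at 0.004501 and 0 BPKM in pcDNA3, 1.54 and 0.932 in hsaFOXP2, 2.09 and 21.8 in ptrFOXP2, 30.2 and 3.91 in mmuFOXP2 and 14.5 and 18.3 in cjaFOXP2 in the libraries. Both hsaFOXP2 libraries thus held less FOXP2 RNA than any non-human FOXP2 library, and the RNA level and the human sequence cannot be told apart in the comparison of hsaFOXP2 with the others. FOXP2 protein was not analysed here. Of the markers of noradrenergic neuroblastoma, 9 of 10 had a mean of at least 1 BPKM, with summed levels between 162 in ptrFOXP2 replicate A and 304 in cjaFOXP2 replicate B, whereas TH, the rate-limiting enzyme of catecholamine synthesis, was listed at 0 in 9 libraries. All 8 markers of mesenchymal neuroblastoma were present, at summed levels between 2026 and 3234 BPKM, the lowest in hsaFOXP2 replicate B. SOX10, a marker of Schwann cells, was below 0.1 BPKM throughout, and none of the endothelial or leukocyte markers reached a mean of 1 BPKM. The files hold no read counts, and the relative depth estimated from the smallest steps between values differed by at most 1.28 times.

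All 31 genes had a value above 0 in each of the 10 libraries, and in 24 the mean reached 1 BPKM: 14 semaphorins, 8 plexins and both neuropilins. SEMA3C stood highest, with a mean of 107 BPKM, followed by PLXNB2 at 78.6 and NRP1 at 78.3, whose values overlapped. NRP2 followed at 34.1 BPKM. The next genes, SEMA4B at 21.6, PLXNA1 at 17.7 and SEMA4C at 15.1 BPKM, overlapped with their neighbours in this order. By the median, plexins were steadier than semaphorins. The highest library exceeded the lowest by a median of 1.58 times over the 9 plexins and 3.83 times over the 20 semaphorins. Of these genes, 6 semaphorins and 1 plexin had a mean below 1 BPKM. PLXNA4, PLXNA2 and PLXND1 spread by 6.26, 4.10 and 3.43 times, the other plexins by at most 1.75 times. Over the 24 genes whose mean reached 1 BPKM the median was 2.45 times, and over all 13412 such genes it was 1.63 times.

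**Figure D1:**
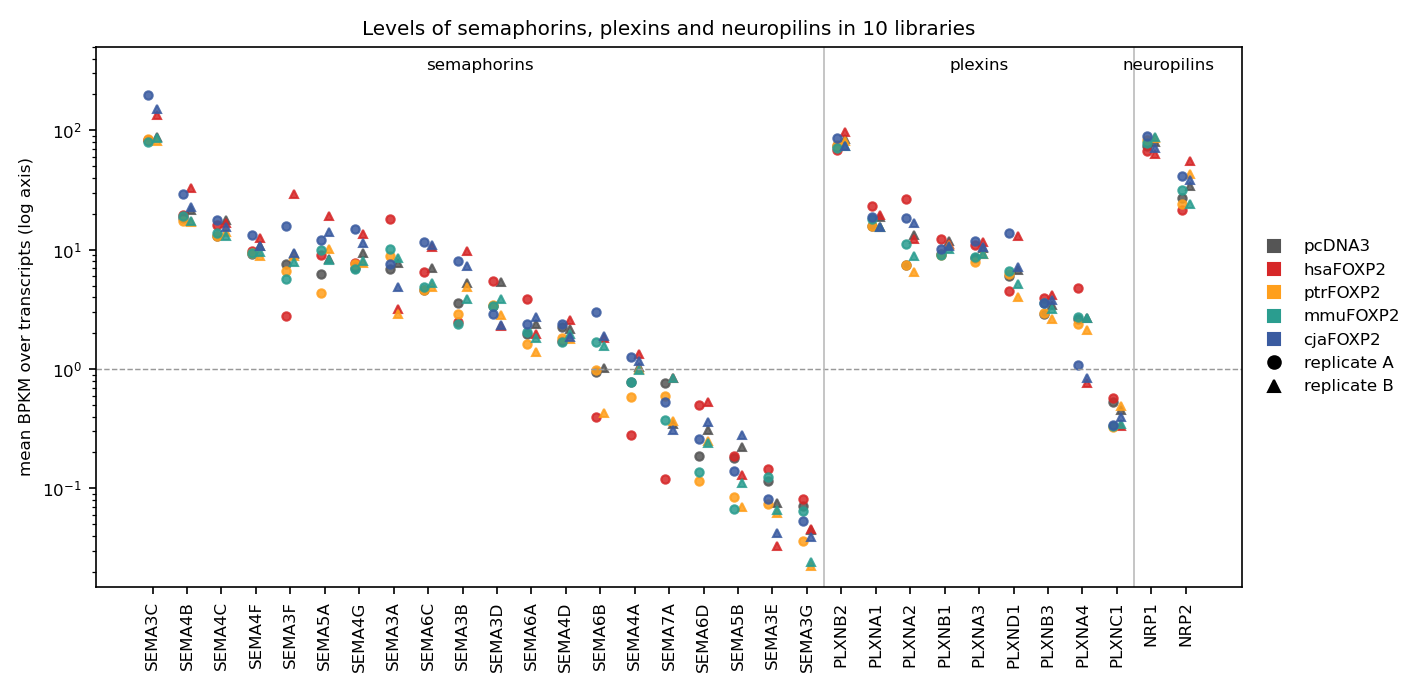
Mean BPKM over transcripts (log axis) of each of the 31 genes in the 10 libraries, by class and in falling order of the mean. Colours mark the conditions, circles replicate A and triangles replicate B, and the dashed line stands at 1 BPKM. SEMA3C, PLXNB2 and NRP1 have the highest means, and SEMA3C alone has values above 100 BPKM. The hsaFOXP2 replicates A and B lie at opposite ends of several genes, such as SEMA3F at 2.78 and 29.4 BPKM.

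Among the co-receptors, NRP1, which binds SEMA3A and also VEGF, was at 73.7 and 79.3 BPKM in pcDNA3, 67.5 and 64.01 in hsaFOXP2, 83.5 and 86.8 in ptrFOXP2, 79.2 and 88.5 in mmuFOXP2 and 89.6 and 70.9 in cjaFOXP2. Both hsaFOXP2 libraries lay below the 8 others, although the nearest of these, cjaFOXP2 replicate B, was only slightly higher. NRP2, the partner of SEMA3F, was at 26.9 and 34.2 BPKM in pcDNA3, 21.7 and 55.5 in hsaFOXP2, 24.3 and 43.2 in ptrFOXP2, 31.5 and 24.4 in mmuFOXP2 and 41.2 and 38.4 in cjaFOXP2. Its replicates differed more than its conditions, and the lowest and the highest of the 10 values were both hsaFOXP2.

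Plexins of class A are the signalling partners of the neuropilins. PLXNA1, which can also bind SEMA6D, was at 15.9 and 18.9 BPKM in pcDNA3, 23.3 and 19.7 in hsaFOXP2, 15.9 and 15.4 in ptrFOXP2, 18.2 and 15.6 in mmuFOXP2 and 18.9 and 15.5 in cjaFOXP2. Both hsaFOXP2 libraries were above all others, which held in 1 of the 2 PLXNA1 transcripts. PLXNA2, a receptor of SEMA6A as well, was at 7.43 and 13.4 BPKM in pcDNA3, 26.9 and 12.2 in hsaFOXP2, 7.52 and 6.54 in ptrFOXP2, 11.1 and 8.91 in mmuFOXP2 and 18.6 and 16.9 in cjaFOXP2. hsaFOXP2 replicate A stood highest there, cjaFOXP2 was next, and hsaFOXP2 replicate B was within the range of pcDNA3. PLXNA3, which acts mainly with NRP2, was at 8.57 and 10.3 BPKM in pcDNA3, 10.96 and 11.6 in hsaFOXP2, 7.86 and 9.298 in ptrFOXP2, 8.69 and 9.299 in mmuFOXP2 and 11.8 and 10.4 in cjaFOXP2. PLXNA4, a partner of NRP1 for SEMA3A, was at 2.62 and 2.68 BPKM in pcDNA3, 4.75 and 0.759 in hsaFOXP2, 2.402 and 2.12 in ptrFOXP2, 2.75 and 2.66 in mmuFOXP2 and 1.08 and 0.839 in cjaFOXP2. For PLXNA4 both cjaFOXP2 libraries and hsaFOXP2 replicate B were near or below 1 BPKM, whereas hsaFOXP2 replicate A had the highest value of all.

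Plexins of class B bind class 4 semaphorins and signal to RhoA as well. PLXNB1, the receptor of SEMA4D, was at 9.17 and 11.8 BPKM in pcDNA3, 12.4 and 11.2 in hsaFOXP2, 9.099 and 10.9 in ptrFOXP2, 9.004 and 10.1 in mmuFOXP2 and 10.1 and 10.7 in cjaFOXP2. PLXNB2, a receptor of SEMA4C that is widely expressed in neural progenitors, was at 74.3 and 84.5 BPKM in pcDNA3, 68.8 and 96.1 in hsaFOXP2, 75.6 and 81.7 in ptrFOXP2, 70.6 and 73.9 in mmuFOXP2 and 86.3 and 74.1 in cjaFOXP2. Neither set the conditions apart, and their highest and lowest libraries differed by only 1.38 and 1.40 times. PLXNB3, a receptor of SEMA5A, was at 2.88 and 3.41 BPKM in pcDNA3, 3.904 and 4.15 in hsaFOXP2, 2.93 and 2.63 in ptrFOXP2, 3.56 and 3.16 in mmuFOXP2 and 3.604 and 3.81 in cjaFOXP2. Its hsaFOXP2 values lay above the 8 others, with cjaFOXP2 replicate B next below, and this held in 3 of its 6 transcripts. PLXND1, which binds SEMA3E without a neuropilin and is known from blood vessels, was at 6.05 and 6.71 BPKM in pcDNA3, 4.54 and 13.1 in hsaFOXP2, 6.25 and 4.01 in ptrFOXP2, 6.58 and 5.18 in mmuFOXP2 and 13.8 and 7.14 in cjaFOXP2. The high values of PLXND1 came from hsaFOXP2 replicate B and cjaFOXP2 replicate A, and their partner replicates were near the other libraries. PLXNC1, the receptor of SEMA7A, stayed between 0.327 and 0.571 BPKM.

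Of the secreted ligands, SEMA3C, which can attract as well as repel axons, was at 83.9 and 88.1 BPKM in pcDNA3, 83.2 and 134 in hsaFOXP2, 84.1 and 82.02 in ptrFOXP2, 79.5 and 86.3 in mmuFOXP2 and 199.9 and 152 in cjaFOXP2. Both cjaFOXP2 libraries exceeded the 8 others, and hsaFOXP2 replicate B came next. SEMA3A, the first collapsing factor described for growth cones, was at 6.88 and 7.72 BPKM in pcDNA3, 18.1 and 3.17 in hsaFOXP2, 8.85 and 2.87 in ptrFOXP2, 10.2 and 8.55 in mmuFOXP2 and 7.62 and 4.84 in cjaFOXP2. SEMA3D was at 3.37 and 5.39 BPKM in pcDNA3, 5.48 and 2.296 in hsaFOXP2, 3.47 and 2.85 in ptrFOXP2, 3.38 and 3.895 in mmuFOXP2 and 2.89 and 2.34 in cjaFOXP2. For SEMA3A and SEMA3D hsaFOXP2 replicate A was the highest library, and replicate B of the same condition was near or at the bottom. SEMA3B, known as a tumour suppressor gene, was at 3.55 and 5.27 BPKM in pcDNA3, 2.48 and 9.74 in hsaFOXP2, 2.88 and 4.84 in ptrFOXP2, 2.396 and 3.87 in mmuFOXP2 and 8.03 and 7.27 in cjaFOXP2. SEMA3F, its neighbour in function that repels through NRP2, was at 7.54 and 9.14 BPKM in pcDNA3, 2.78 and 29.4 in hsaFOXP2, 6.64 and 8.95 in ptrFOXP2, 5.68 and 7.95 in mmuFOXP2 and 15.7 and 9.37 in cjaFOXP2. Both had their highest value in hsaFOXP2 replicate B, and low values in hsaFOXP2 replicate A. SEMA3E and SEMA3G were barely present, at 0.0329 to 0.145 and 0.0225 to 0.0810 BPKM.

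Class 4 is the first of the membrane-bound classes. SEMA4B was at 18.5 and 21.6 BPKM in pcDNA3, 19.4 and 33.2 in hsaFOXP2, 17.6 and 17.04 in ptrFOXP2, 19.1 and 17.5 in mmuFOXP2 and 29.1 and 22.995 in cjaFOXP2. SEMA4C, the ligand of PLXNB2, was at 12.9 and 17.7 BPKM in pcDNA3, 16.1 and 16.9 in hsaFOXP2, 12.98 and 14.05 in ptrFOXP2, 13.8 and 13.03 in mmuFOXP2 and 17.9 and 15.4 in cjaFOXP2. SEMA4D, the ligand of PLXNB1 and known from lymphocytes, was at 2.24 and 2.18 BPKM in pcDNA3, 1.71 and 2.55 in hsaFOXP2, 1.82 and 1.796 in ptrFOXP2, 1.67 and 1.95 in mmuFOXP2 and 2.39 and 1.86 in cjaFOXP2. Each was less than 2 times as high in its highest as in its lowest library, and no condition stood apart. SEMA4F was at 9.21 and 10.8 BPKM in pcDNA3, 9.69 and 12.4 in hsaFOXP2, 9.46 and 8.82 in ptrFOXP2, 9.45 and 9.65 in mmuFOXP2 and 13.2 and 10.8 in cjaFOXP2. SEMA4G, also a ligand of PLXNB2, was at 6.97 and 9.396 BPKM in pcDNA3, 7.797 and 13.6 in hsaFOXP2, 7.55 and 7.71 in ptrFOXP2, 6.88 and 7.98 in mmuFOXP2 and 14.9 and 11.3 in cjaFOXP2. In both genes cjaFOXP2 replicate A was the highest library, followed by hsaFOXP2 replicate B. SEMA4A, known mainly from the immune system and the retina, ranged from 0.278 in hsaFOXP2 replicate A to 1.35 BPKM in hsaFOXP2 replicate B.

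SEMA5A, a protein with thrombospondin repeats that can attract or repel, was at 6.32 and 8.43 BPKM in pcDNA3, 9.12 and 19.04 in hsaFOXP2, 4.304 and 10.1 in ptrFOXP2, 10.01 and 8.28 in mmuFOXP2 and 12.1 and 14.2 in cjaFOXP2. Its relative SEMA5B was far lower, at 0.1796 and 0.223 BPKM in pcDNA3, 0.186 and 0.129 in hsaFOXP2, 0.0842 and 0.0698 in ptrFOXP2, 0.0673 and 0.112 in mmuFOXP2 and 0.141 and 0.279 in cjaFOXP2. All 4 ptrFOXP2 and mmuFOXP2 libraries lay below both pcDNA3 libraries in SEMA5B, at values under 0.12 BPKM. SEMA6A, which guides cells and axons through PLXNA2 and PLXNA4, was at 1.97 and 2.39 BPKM in pcDNA3, 3.87 and 1.98 in hsaFOXP2, 1.62 and 1.398 in ptrFOXP2, 2.04 and 1.82 in mmuFOXP2 and 2.399 and 2.74 in cjaFOXP2. Its ptrFOXP2 values were below the 8 others. SEMA6B was at 0.944 and 1.03 BPKM in pcDNA3, 0.394 and 1.82 in hsaFOXP2, 0.989 and 0.4303 in ptrFOXP2, 1.68 and 1.57 in mmuFOXP2 and 3.04 and 1.89 in cjaFOXP2. SEMA6C was at 4.63 and 7.03 BPKM in pcDNA3, 6.54 and 10.5 in hsaFOXP2, 4.56 and 4.88 in ptrFOXP2, 4.87 and 5.25 in mmuFOXP2 and 11.7 and 10.9 in cjaFOXP2. In both, the cjaFOXP2 values exceeded the 8 others, although hsaFOXP2 replicate B came close. SEMA6D, a ligand of PLXNA1 with a part in heart development, was at 0.187 and 0.306 BPKM in pcDNA3, 0.4996 and 0.531 in hsaFOXP2, 0.116 and 0.248 in ptrFOXP2, 0.137 and 0.238 in mmuFOXP2 and 0.261 and 0.361 in cjaFOXP2. The hsaFOXP2 values were the highest 2 of the 10 and nearly equal, at a level well under 1 BPKM. SEMA7A, which is anchored by a lipid and also binds integrins, ranged from 0.119 in hsaFOXP2 replicate A to 0.843 BPKM in hsaFOXP2 replicate B.

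**Figure D2:**
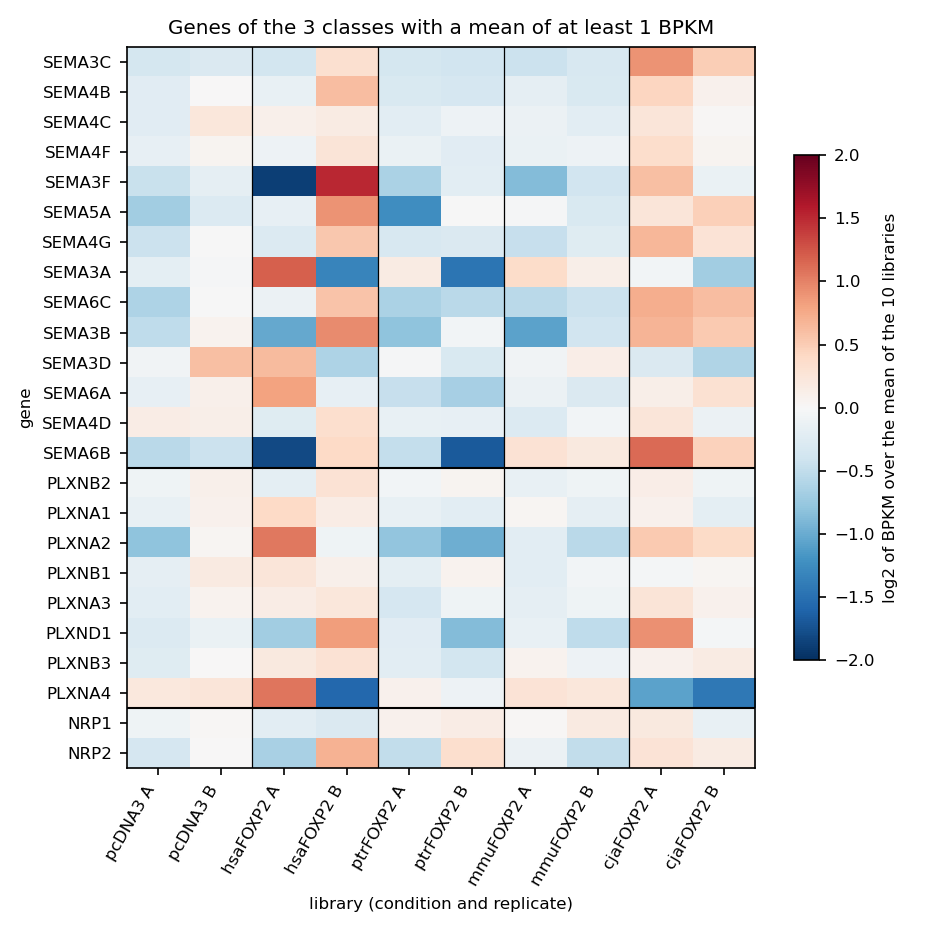
Log2 of each BPKM value over the gene's mean of the 10 libraries, for the 24 genes whose mean reached 1 BPKM. Columns are libraries, rows are genes grouped as semaphorins, plexins and neuropilins, and red is above and blue below the mean. The deepest contrasts stand between hsaFOXP2 replicates A and B, and both cjaFOXP2 libraries are red in all semaphorins shown except SEMA3A, SEMA3D, SEMA3F and SEMA4D.

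Summed over the 20 ligands, the semaphorin level was 171 and 198 BPKM in pcDNA3, 188 and 294 in hsaFOXP2, 168 and 170 in ptrFOXP2, 172 and 180 in mmuFOXP2, and 343 and 270 in cjaFOXP2. SEMA3C alone made up between 44.3% and 58.3% of it, most in cjaFOXP2. The sum of the 9 plexins was 128 and 152 in pcDNA3, 156 and 169 in hsaFOXP2, 128 and 133 in ptrFOXP2, 131 and 129 in mmuFOXP2, and 164 and 140 in cjaFOXP2, with PLXNB2 giving 44.1% to 61.4%. The sum of the neuropilins stayed between 89.1 BPKM in hsaFOXP2 replicate A and 131 in cjaFOXP2 replicate A. Ligand RNA thus spread over a wider range than receptor RNA, and the 2 highest semaphorin sums after cjaFOXP2 replicate A were hsaFOXP2 replicate B and cjaFOXP2 replicate B.

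**Figure D3:**
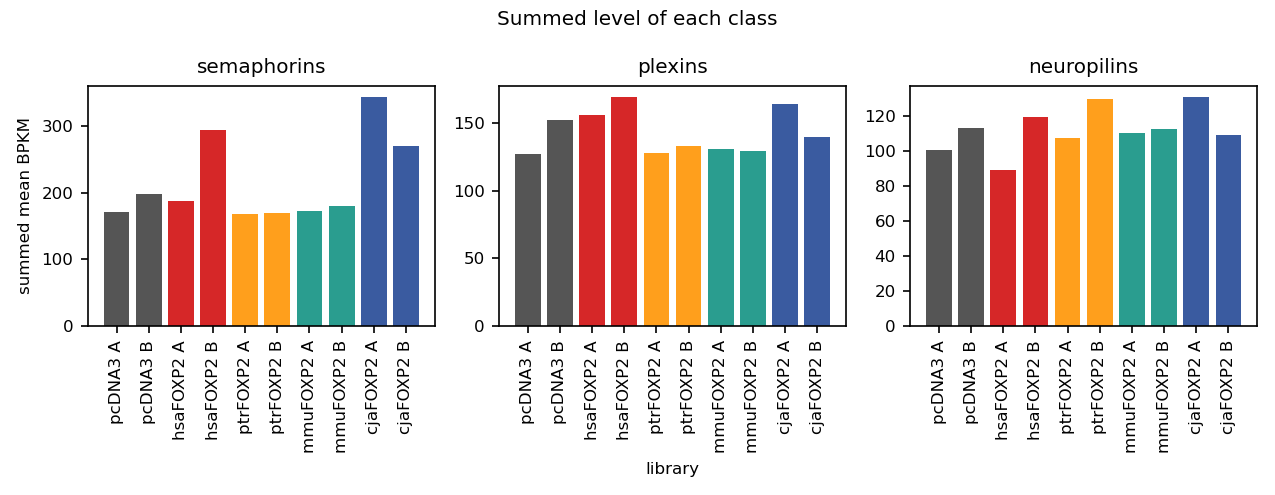
Summed mean BPKM of the 20 semaphorins, 9 plexins and 2 neuropilins in each of the 10 libraries, 1 bar per library coloured by condition, each axis from 0. The semaphorin sum is highest in cjaFOXP2, at 343 and 270 BPKM, with hsaFOXP2 replicate B at 294, and the plexin and neuropilin sums vary less.

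The replicates of hsaFOXP2 were far apart in these genes. Of the 24 genes whose mean reached 1 BPKM, 6 were at least 2 times higher in replicate B (NRP2, PLXND1, SEMA3B, SEMA3F, SEMA5A and SEMA6B), against 5.38% of all 13412 such genes. Another 4 were at least 2 times lower in replicate B (PLXNA2, PLXNA4, SEMA3A and SEMA3D), against 4.00% of all. SEMA3F differed most, by 10.6 times, and its 2 transcripts by 10.2 and 10.96 times. In ptrFOXP2 SEMA5A was at least 2 times higher in replicate B (background 1.09%), and SEMA3A and SEMA6B at least 2 times lower (background 1.19%). None of the 24 genes differed that much between the replicates of pcDNA3, mmuFOXP2 or cjaFOXP2, where 1.13%, 2.40% and 0.992% of all genes did. Of the 8 mesenchymal markers, 4 were higher and 4 lower in hsaFOXP2 replicate B than in A, with PRRX1 at 42.3 and 1.90 BPKM and FN1 at 185 and 486 BPKM in A and B, and their part in these differences was not tested.

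**Figure D4:**
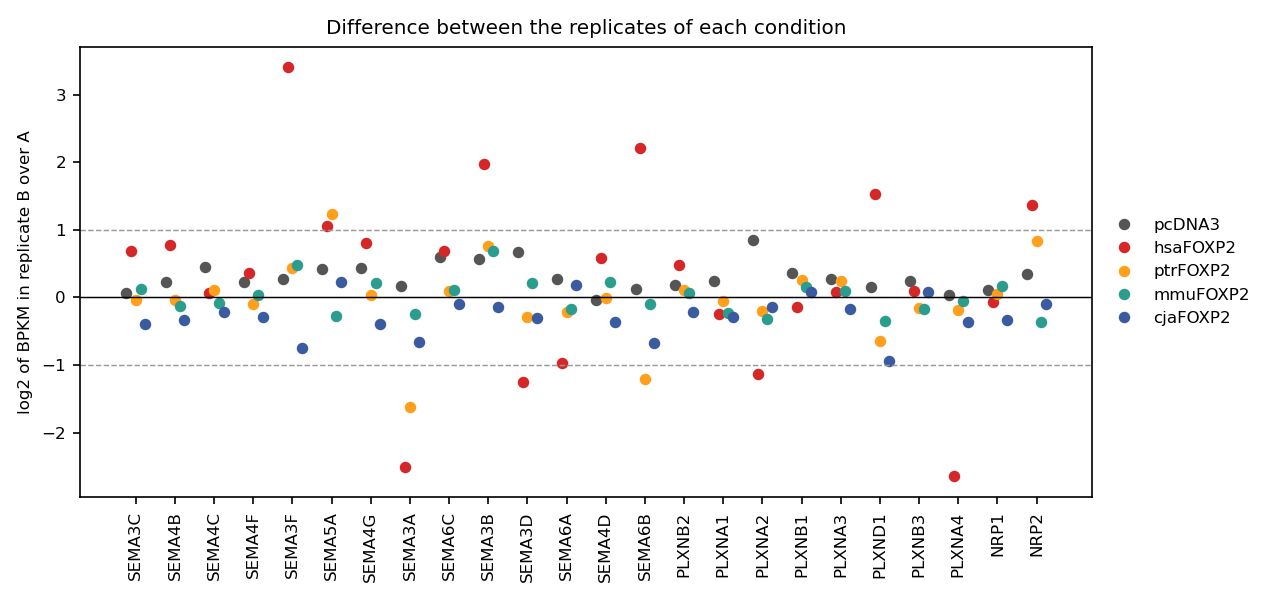
Log2 of the BPKM in replicate B over replicate A in each of the 5 conditions, for the 24 genes whose mean reached 1 BPKM. Points are coloured by condition and the dashed lines mark a 2-fold difference. Most hsaFOXP2 points lie farthest from 0, up to 10.6 times for SEMA3F, and pcDNA3, mmuFOXP2 and cjaFOXP2 points stay within the lines.

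Since FOXP2 is a transcription factor, the promoters were searched for 3 short sequences, CAAATT and also ATTTGT as well as TGTTTAC, which are known as FOXP2-binding motifs and were screened by the study in other genes. Both strands were searched, and no match counted here overlaps another. RefSeq promoters of GRCh38.p14, from 250 bases before to 50 bases after a start, were at hand for 27 of the 31 genes, in 48 windows; NRP1, SEMA3A, SEMA6A and SEMA6B had none. CAAATT was in 2.08% of these windows (10.7% of all 35116 promoter windows), ATTTGT in 4.17% (11.9%) and TGTTTAC in 6.25% (3.42%). All 6 matches are shown with their surroundings in the direction of the gene, the motif or its reverse complement in capitals.
PLXNC1, chr12:94148327-94148626, CAAATT: tacacagtaaccCAAATTacgagacctccc
SEMA3E, chr7:83649090-83649389, TGTTTAC on the other strand: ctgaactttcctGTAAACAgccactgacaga
SEMA3G, chr3:52445054-52445353, ATTTGT: ctggggacctgcATTTGTggacatctctgt
SEMA4B, chr15:90184670-90184969, TGTTTAC on the other strand: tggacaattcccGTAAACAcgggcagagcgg
SEMA5B, chr3:122993189-122993488, ATTTGT on the other strand: agtattcctgggACAAATaatccaccccac
SEMA5B, chr3:123028556-123028855, TGTTTAC on the other strand: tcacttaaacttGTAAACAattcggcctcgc
Of the 5 genes with a match, SEMA4B alone had a mean above 1 BPKM.

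The genes with both hsaFOXP2 libraries apart and with a window at hand, SEMA6D, PLXNA1 and PLXNB3, and the ligands SEMA3C and SEMA6C, with both cjaFOXP2 libraries apart, held none of the 3 sequences in their windows, which says only that these letters are not there. For the ligands SEMA3C and SEMA6C, whose values are described below, 1 window each is shown whole, again in the direction of the gene and with no capitals because nothing matched.
SEMA3C, chr7:80919002-80919301: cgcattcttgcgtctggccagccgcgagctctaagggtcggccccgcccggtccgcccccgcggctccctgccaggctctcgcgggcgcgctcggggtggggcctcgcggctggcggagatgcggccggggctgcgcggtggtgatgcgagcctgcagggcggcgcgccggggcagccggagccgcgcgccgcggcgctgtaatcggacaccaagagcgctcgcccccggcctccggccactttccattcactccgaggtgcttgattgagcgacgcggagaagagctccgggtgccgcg
SEMA6C, chr1:151146582-151146881: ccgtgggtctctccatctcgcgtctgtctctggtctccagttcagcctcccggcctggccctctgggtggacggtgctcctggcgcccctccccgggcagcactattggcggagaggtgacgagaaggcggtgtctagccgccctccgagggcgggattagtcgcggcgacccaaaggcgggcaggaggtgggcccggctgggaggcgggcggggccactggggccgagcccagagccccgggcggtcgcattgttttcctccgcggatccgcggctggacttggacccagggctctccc

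The first question of the study was how cells with human FOXP2 differ from cells with non-human FOXP2. In the 31 genes, SEMA6D and PLXNA1 were higher and NRP1 lower in the 2 hsaFOXP2 than in the 6 non-human FOXP2 libraries at an unadjusted p under 0.05, and none passed after adjustment over all genes. SEMA6D, the ligand, was at 0.515 ± 0.0221 BPKM (SD, n = 2) in hsaFOXP2, and its non-human FOXP2 values ended at 0.361. Its log2 fold change on log2(BPKM + 0.1) was 0.96 (SE 0.30, limma adjusted p = 0.906), and the added 0.1 BPKM makes this too small for so low a gene. All 8 SEMA6D transcripts, which share exons and reads, had both hsaFOXP2 values above the 8 others. PLXNA1, a receptor of SEMA6D, had a log2 fold change of 0.37 (SE 0.13, limma adjusted p = 0.975). NRP1 had -0.33 (SE 0.13, limma adjusted p = 1.00), and 5 of its 9 transcripts had both hsaFOXP2 values below the 8 others. SEMA6D is among the genes that the study had singled out on these same libraries, so that its place here is no independent evidence.

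Against the background, 2 of 31 genes higher compares with 3.02% of 21937 genes, and 1 of 31 lower with 1.42%, while 0 of 31 at an adjusted p under 0.05 compares with 0.00912%. The 9 plexins all had a positive log2 fold change (median 0.24), as did 16 of 20 semaphorins (median 0.19), whereas the median of all genes tested was 0.01. Among all 21937 genes tested, 11748 had a positive one. With the most abundant transcript alone 8 of 9 plexins were positive, and without hsaFOXP2 replicate A or B 7 of 9. The semaphorins rested on 1 library: without hsaFOXP2 replicate B 9 of 20 were positive, with a median of -0.04, and without replicate A 17 of 20, with 0.39. SEMA3F, near 0 with both replicates, had a log2 fold change of 1.77 without replicate A (limma adjusted p = 0.444) and -1.59 without replicate B (limma adjusted p = 0.315).

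The 3 named genes also moved with single libraries. SEMA6D was at an unadjusted p under 0.05 in 14 of 15 alternatives, and missed it without hsaFOXP2 replicate B, at a log2 fold change of 0.92. PLXNA1 missed it in 1 of 16, without hsaFOXP2 replicate A, at 0.25. NRP1 missed it in 5 of 16: without hsaFOXP2 replicate A, at -0.37, or B, at -0.30, without ptrFOXP2 replicate A, at -0.33, or B, at -0.32, and without mmuFOXP2 replicate B, at -0.31.

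**Figure D5:**
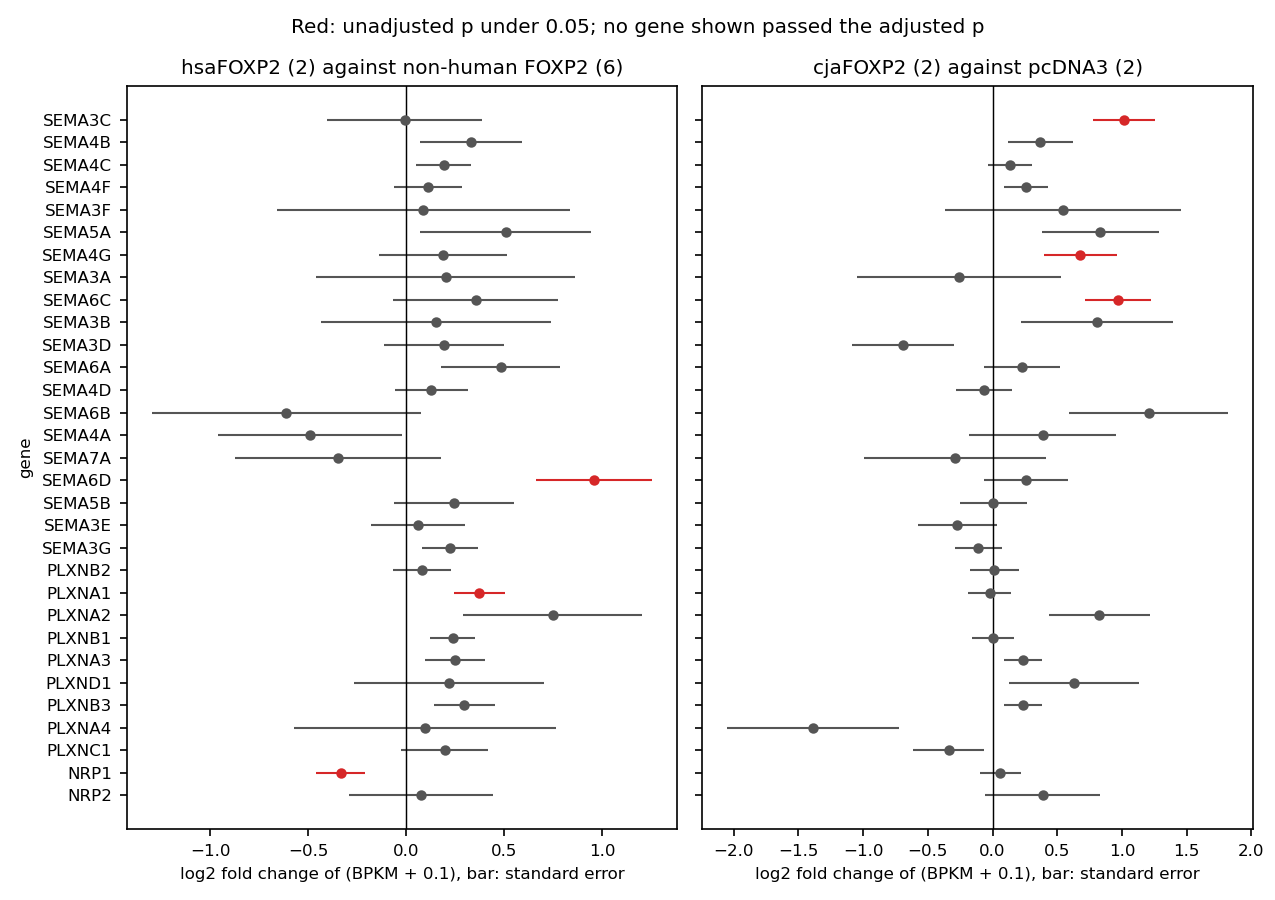
Log2 fold change of (BPKM + 0.1) with its standard error for each of the 31 genes, on the left for hsaFOXP2 (2 libraries) against non-human FOXP2 (6) and on the right for cjaFOXP2 (2) against pcDNA3 (2). Red marks an unadjusted limma p under 0.05: SEMA6D, PLXNA1 and NRP1 on the left, and SEMA3C, SEMA6C and SEMA4G on the right, with long bars for genes such as SEMA3F.

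Against the empty vector, hsaFOXP2 was higher in SEMA6D, with a log2 fold change of 0.85 (SE 0.33, limma adjusted p = 1), and in PLXNB3, with 0.35 (SE 0.14, limma adjusted p = 1). These 2 of 31 genes compare with 2.12% of 22238 genes, and 0 of 31 at an adjusted p with 0.00899%. All 4 comparisons with pcDNA3 share the same 2 control libraries. For SEMA6D pcDNA3 was at 0.247 ± 0.0839 BPKM (SD, n = 2), and all 4 pcDNA3 and hsaFOXP2 values were under 0.6 BPKM. PLXNB3 missed an unadjusted p under 0.05 in 12 of 18 alternatives, among them the replicate block, which left its log2 fold change at 0.35 (limma adjusted p = 0.920), and the most abundant transcript, at 0.22. Leaving out any library but pcDNA3 replicate B lost it, at 0.23 to 0.39. SEMA6D lost it without pcDNA3 replicate A, at 0.60, without hsaFOXP2 replicate A or B, at 0.89 or 0.81, and with a pseudocount of 0.01, at 1.07. Without hsaFOXP2 replicate A 11 of the 31 genes were at an unadjusted p under 0.05, beside 10.6% of all genes, and without replicate B 7 were, beside 11.4%. SEMA3F and PLXNA4 were among them both times but in opposite directions, SEMA3F at log2 fold changes of 1.81 and -1.54 and PLXNA4 at -1.68 and 0.82. A fit without 1 library takes the remaining 1 of that condition to vary like the other conditions. With the replicate block SEMA6C, at 0.53, and SEMA5A, at 0.84, were added to SEMA6D, so that 3 of 31 genes stood beside 5.43% of all.

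Of the comparisons with pcDNA3, that of cells with the marmoset cDNA gave the smallest unadjusted limma p-values among the 31 genes. It also had the largest share of all genes at an unadjusted p under 0.05. SEMA3C was at 176 ± 34.1 BPKM (SD, n = 2) in cjaFOXP2 and 85.98 ± 2.94 BPKM (SD, n = 2) in pcDNA3, with a log2 fold change of 1.02 (SE 0.24, limma adjusted p = 0.279). All 3 of its transcripts had both cjaFOXP2 values above the 8 other libraries. SEMA6C was at 11.3 ± 0.525 BPKM (SD, n = 2) in cjaFOXP2 and 5.83 ± 1.695 BPKM (SD, n = 2) in pcDNA3, with a log2 fold change of 0.97 (SE 0.26, limma adjusted p = 0.294), and 3 of 4 transcripts behaved alike. SEMA4G, the third, had 0.68 (SE 0.28, limma adjusted p = 0.438). These 3 genes of 31 compare with 3.90% of all genes that were higher at an unadjusted p under 0.05. Lower at such a p were 0 of 31, beside 7.12% of all genes, and in either direction 11% of all genes were called. At an adjusted p 0 of 31 compares with 0.00899%.

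SEMA3C and SEMA6C stayed at an unadjusted p under 0.05 in 18 of 18 alternatives, with log2 fold changes of 0.82 to 1.22 and 0.67 to 1.27. SEMA4G did so in 9 of 18, and was lowest, at a log2 fold change of 0.47, without pcDNA3 replicate A and, at 0.48, without cjaFOXP2 replicate A. It also missed without any 1 ptrFOXP2 or mmuFOXP2 library, which left its fold change at 0.68. Of the 20 semaphorins, 14 were higher than in pcDNA3 (median log2 fold change 0.26), and of 9 plexins 6 were (median 0.01), beside a median of -0.03 over all genes. Among all 22238 genes tested, 9742 were higher. With the replicate block SEMA5A, at 0.83, made it 4 of 31 genes at an unadjusted p under 0.05, beside 13.6% of all. The plexin median fell below 0 without pcDNA3 replicate A, at -0.08. PLXNA4, the receptor with the lowest cjaFOXP2 values, had -1.38 (SE 0.66, limma adjusted p = 0.487). Its spread came from the hsaFOXP2 replicates, and without hsaFOXP2 replicate A or B it had a limma adjusted p = 0.103 or adjusted p = 0.101 against pcDNA3.

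In ptrFOXP2 and mmuFOXP2 the only gene of the 31 at an unadjusted p under 0.05 was SEMA5B, which was lower than in pcDNA3 in both. Its log2 fold change was -0.77 in ptrFOXP2 (SE 0.26, limma adjusted p = 1) and -0.67 in mmuFOXP2 (SE 0.26, limma adjusted p = 1). The background of lower genes was 2.73% and 2.48%, and that of genes at an adjusted p was 0.00899% and 0.00450%, with 0 of 31 here. At the SEMA5B level of 0.0673 to 0.279 BPKM, the added 0.1 BPKM weighs as much as the measurement. In ptrFOXP2 SEMA5B missed this p without pcDNA3 replicate B, at -0.66, or ptrFOXP2 replicate B, at -0.71, and in mmuFOXP2 without pcDNA3 replicate A, at -0.78, or B, at -0.57, or mmuFOXP2 replicate A, at -0.50. With the replicate block SEMA3G joined it in ptrFOXP2, at -0.29 (limma adjusted p = 1), which makes 2 of 31 genes beside 3.75% of all. Against pcDNA3, 29 of the 31 genes were lower in ptrFOXP2, with a median of -0.21, and 24 in mmuFOXP2, with a median of -0.13, beside -0.03 and 0 (to 2 decimals) over all genes tested. Of all 22238 genes tested, 13239 were lower in ptrFOXP2 and 11397 in mmuFOXP2. Leaving out pcDNA3 replicate B or ptrFOXP2 replicate A brought the first count to 21. Without pcDNA3 replicate B the second was 14, and its median turned to 0.04.

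Over all 5 conditions at once, a moderated F test gave an unadjusted p under 0.05 for 5 of the 31 genes, beside 8.75% of all genes, and an adjusted one for 0, beside 0.0135%. They were SEMA6C (F = 8.30), SEMA3C (7.18), PLXNA2 (4.52), SEMA6D (4.28) and SEMA5B (3.99), at limma adjusted p-values from 0.423 for the first to 0.569 for the last. SEMA6C kept p under 0.05 in 18 of 18 alternatives, and SEMA3C lost it once, without cjaFOXP2 replicate A (F = 3.20). With the replicate block SEMA5B missed it (F = 4.03, limma adjusted p = 0.453). PLXNA2, SEMA6D and SEMA5B missed it in 7 of 18, 9 of 17 and 11 of 17 alternatives. Without hsaFOXP2 replicate B, PLXNA4 passed the adjusted p (limma, adjusted p = 0.0478), and without replicate A it did not (0.0985), in fits that estimate the spread from the other conditions alone.

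The study asked first of a gene that both hsaFOXP2 libraries lie on 1 side of the 8 others, and the same count was taken for every condition. PLXNA1, PLXNB3 and SEMA6D lay above in hsaFOXP2, as did 2.23% of 23348 genes, and NRP1 lay below, as did 1.61%. SEMA3C, SEMA6B and SEMA6C lay above in cjaFOXP2, where 5.78% of all genes did, and 0 lay below, where 7.62% did. SEMA6A lay below in ptrFOXP2, where 2.57% did. None of the 31 genes set pcDNA3 or mmuFOXP2 apart, beside 2.27% and 1.97% of all genes in either direction. With each library divided by its median ratio to the others only 1 gene was left apart in cjaFOXP2. Without hsaFOXP2 replicate A or B, the remaining hsaFOXP2 library lay at an end of the order in 16 or 19 of the 31 genes, beside 24.2% or 31.5% of all genes.

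The partners of the system were read from 2 further lists. Of 17 co-receptors and other semaphorin receptors, 14 were tested, and NRCAM and CNTN2 were higher in hsaFOXP2 than in non-human FOXP2 cells at an unadjusted p under 0.05. These 2 of 14 genes higher and 0 lower stand beside 3.02% and 1.42% of all genes. NRCAM, a cell adhesion molecule that joins neuropilins in the receptor of SEMA3B and SEMA3F, was at 8.598 and 5.297 BPKM in pcDNA3, 6.499 and 4.67 in hsaFOXP2, 2.81 and 1.05 in ptrFOXP2, 1.88 and 2.53 in mmuFOXP2 and 2.63 and 1.46 in cjaFOXP2. The 4 pcDNA3 and hsaFOXP2 values all lay above the 6 non-human FOXP2 values. Its log2 fold change was 1.45 for hsaFOXP2 against non-human FOXP2 (SE 0.36, limma adjusted p = 0.703), and against pcDNA3 it was -1.90 in ptrFOXP2, -1.59 in mmuFOXP2 and -1.73 in cjaFOXP2 (limma adjusted p = 0.906, adjusted p = 1 and adjusted p = 0.308). CNTN2, an axonal contactin, was under 0.05 BPKM throughout (log2 fold change 0.29, limma adjusted p = 0.777), and ITGA1 and CSPG4 had adjusted p = 1.00.

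Of 32 genes that act below plexins, none was at an unadjusted p under 0.05 between hsaFOXP2 and non-human FOXP2. The share of all genes at such a p was 4.44%. Nearest to it were DPYSL3 (log2 fold change 0.33), ARHGEF11 (0.17), RRAS2 (-0.31) and GSK3B (0.17), each at a limma adjusted p = 1.00. In cjaFOXP2 against pcDNA3, MICAL1 (0.39) and RRAS (0.59) were higher and MICAL2 (-0.75) lower on the log2 scale at an unadjusted limma p under 0.05, without passing after adjustment (adjusted p = 0.391, 0.448 and 0.397). These 2 of 32 genes higher and 1 lower stand beside 3.90% and 7.12% of all genes. MICAL proteins oxidise actin after plexin activation, and RRAS is a substrate of the plexin GAP domain. MICAL1 was at 27.98 and 35.1 BPKM in pcDNA3, 34.2 and 36.5 in hsaFOXP2, 29.3 and 27.96 in ptrFOXP2, 31.8 and 30.5 in mmuFOXP2 and 40.4 and 42.02 in cjaFOXP2, with both cjaFOXP2 values above the 8 others.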

How the data were processed

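The RNA-seq covered 10 libraries of SH-SY5Y cells, 2 per condition, grouped by the labels. The authors aligned reads of poly(A)-selected RNA to hg19 with STAR (version not given in the sources used here) and counted bases over the exons of UCSC transcripts. What they deposited is BPKM, a form of RPKM in which bases take the place of reads. Counts, depth and use of strand are not stated, so the precision of single values and reads shared with overlapping genes cannot be judged. The genome build hg19 also stands in the submitters' processing notes. Of 80922 transcripts, 2 without a gene symbol were left out.

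Gene levels were mean BPKM over transcripts (Python 3.11.15, pandas 2.3.3). log2(BPKM + 0.1) was tested with limma 3.58.1 in R 4.3.3, with trend and robust moderation, over genes above 0 in at least 2 libraries, with Benjamini-Hochberg adjustment over all genes and a threshold of 0.05. The script was tested on simulated data. Comparisons with pcDNA3 came from 1 fit of 5 conditions. Every gene of the 3 classes was described, and those at an unadjusted p under 0.05 or with both libraries of a condition apart were named; up to 4 genes of each partner list with the smallest p were named. Genes and lists were chosen with earlier results of these data known, and MICAL1, MICAL2, RRAS, PRRX1 and FN1 after their values were seen. The labels tie the letters A and B to rounds of transfection and so pair the libraries; replicate differences correlated at -0.194 to 0.369 between conditions, above 0.1 in 5 of 10 pairs. Alternatives were the pseudocount, the filter, the most abundant transcript, median-ratio scaling, moderation without trend, the replicate block and leaving out each library. Promoter sequences are from RefSeq (GRCh38.p14), another build than that of the files. Some values of the marker lists are not reported here.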

Additional observations from a re-analysis of the deposited data

Results flagged for a closer look

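Each of the 31 genes was checked for a library at 1 end of the 6 non-human FOXP2 libraries whose gap to its nearest neighbour took up more of the whole range than Dixon's criterion allows at the 95% level for 6 values. This picks about 1 in 20 groups by chance if all 6 values come from 1 population, and 3 of the 31 genes met it. All 3 involved cjaFOXP2. Since the 6 libraries came from different cDNAs, a single deviating library and a difference between conditions cannot be told apart here. SEMA3F, the NRP2 ligand, was at 15.7 BPKM in cjaFOXP2 replicate A, with the next library at 9.37. PLXND1, the SEMA3E receptor, was at 13.8 BPKM in the same library, with the next at 7.14. SEMA5B was at 0.279 BPKM in cjaFOXP2 replicate B, with the next at 0.141.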

How the results depend on the processing

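Of 15 values of genes at an unadjusted p under 0.05, 10 fold changes and 5 F values, no fold change turned its sign in any alternative, whereas SEMA3F and PLXNA4, outside these, turned with the hsaFOXP2 library left out, and 3 of the 15 kept their side of an unadjusted p of 0.05 in all of them. Counts of all genes at an adjusted p under 0.05 (limma) were small and unstable. In the order hsaFOXP2 against non-human FOXP2, then hsaFOXP2, ptrFOXP2, mmuFOXP2 and cjaFOXP2 against pcDNA3, then any difference, they were 2, 2, 2, 1, 2 and 3, and without the filter on low values 11, 19, 15, 21, 20 and 42. With a mean of at least 1 BPKM they were 1, 1, 0, 0, 0 and 1. Pseudocount 1 gave 1 in the first and 1 in ptrFOXP2; pseudocount 0.01 gave 4 in hsaFOXP2 and 0 in ptrFOXP2 and mmuFOXP2 against pcDNA3. Fits with no trend gave 0 in ptrFOXP2, mmuFOXP2 and any difference. The replicate block gave 0 in ptrFOXP2, mmuFOXP2, cjaFOXP2 and any difference, and changed no other such count. The most abundant transcript gave 2 in mmuFOXP2 and 5 for any difference. Leaving out 1 library gave 1 to 40, 0 to 72, 0 to 3, 0 to 2, 0 to 3 and 0 to 42, highest without hsaFOXP2 replicate B where over 8.

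The number of the 31 genes at an unadjusted p under 0.05 was 3, 2, 1, 1, 3 and 5 in the same order, and 2 to 8, 0 to 11, 0 to 2, 0 to 1, 2 to 9 and 2 to 13 without 1 library. Without hsaFOXP2 replicate A or B the share of all genes at such a p rose as well, in each of these comparisons. The higher counts are therefore not particular to the 31 genes. For fits without another library the share of all genes is not given here. For the 31 genes, a mean of at least 1 BPKM gave 1 in hsaFOXP2, 0 in ptrFOXP2 and mmuFOXP2 against pcDNA3 and 3 for any difference. Pseudocount 0.01 gave 1 in hsaFOXP2 against pcDNA3 and 3 for any difference, no filter 3 for any difference, the most abundant transcript 0 in mmuFOXP2, and the replicate block 2 in ptrFOXP2. Genes with a condition apart from the others were 0 (pcDNA3), 4 (hsaFOXP2), 1 (ptrFOXP2), 0 (mmuFOXP2) and 3 (cjaFOXP2). Without 1 library these were 0 to 1, 4 to 19, 1 to 9, 0 to 6 and 3 to 12. With fewer libraries to compare, any gene lies apart more readily. For hsaFOXP2, 24.2% or 31.5% of all genes did so without its replicate A or B. The share of all genes was not computed for the other conditions. Their ranges therefore cannot show whether these genes differ from the rest. For the 31 genes, the most abundant transcript gave 3 in ptrFOXP2 and 1 in cjaFOXP2, and median-ratio scaling 1 in cjaFOXP2. The causes were not tested, beyond the fewer libraries and genes that enter. The sign counts without single libraries were added after seeing the data. With 2 libraries per condition and no counts, differences smaller than the gap between replicates were not detectable.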
